A study of Mus musculus with 15 samples.

Results

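The genes described here encode the mouse chemokine ligands. They were taken from the GENCODE M21 annotation as the protein-coding genes whose symbol begins with Ccl or Cxcl and a digit, with Cx3cl1, Xcl1 and Pf4 added, which gave 38 of 21938 protein-coding genes. For each gene the length of its body plus 5 kb upstream, called its window, that lay under called chromatin regions was measured in every library. Of the 38 genes, 29 lay in 7 clusters, defined as runs with less than 500 kb between neighbours, and 9 were single. Cxcl11 is annotated as a polymorphic pseudogene in this release and Ccl21c had no matching symbol, so neither was included.

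The libraries came from bone marrow-derived macrophages (BMDMs) on a C57BL/6 background, from mice aged 8 to 10 weeks, after 6 to 8 days in L929-conditioned medium. Profiling was by CUT&RUN, in which antibody-tethered nuclease releases the bound chromatin for sequencing. WT cells carried H3f3a fl/fl and H3f3b fl/fl alleles without Cre. H3.3 cKO cells carried the same floxed alleles plus LysM cre. LysM (Lyz2) drives Cre in the myeloid lineage, so deletion depends on Cre activity during differentiation, and the study describes H3f3b deletion as variable. H3.3-HA cells carried an HA epitope at H3f3b, and were the cells used to locate H3.3. H3K27ac and H3K36me3 were profiled in both WT and cKO, which with H3.3-HA made 5 groups of 2 biological replicates each.

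Chemokines are small secreted proteins that attract leukocytes through G protein-coupled receptors. Many inflammatory chemokine genes sit side by side in the genome and are switched on in macrophages by NF-kappaB, by interferon signaling, or by both. The histone variant H3.3 is placed in chromatin outside of DNA replication and is enriched at active genes and regulatory elements. H3K27ac marks active promoters and enhancers, whereas H3K36me3 covers the bodies of transcribed genes.

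Promoter sequences are shown for 5 genes of the chromosome 5 and 11 clusters whose H3K27ac lengths differed between genotypes, chosen with those values known. Each runs 5′ to 3′ on the gene's own strand from 250 bases before to 50 bases after the start site, from RefSeq on build GRCm38. Capitals mark matches on either strand to the IRF core GAAANNGAA or to the kappaB consensus, the binding patterns of interferon regulatory factors and NF-kappaB. Cxcl10 (chr5:92348840-92349139, minus strand) and Cxcl9 (chr5:92328030-92328329, minus strand) encode interferon-induced ligands of Cxcr3. Cxcl2 (chr5:90903649-90903948, plus strand) encodes a neutrophil attractant, Ccl12 (chr11:82101595-82101894, plus strand) a monocyte attractant, and Pf4 (chr5:90772185-90772484, plus strand) platelet factor of megakaryocytes.
Cxcl10: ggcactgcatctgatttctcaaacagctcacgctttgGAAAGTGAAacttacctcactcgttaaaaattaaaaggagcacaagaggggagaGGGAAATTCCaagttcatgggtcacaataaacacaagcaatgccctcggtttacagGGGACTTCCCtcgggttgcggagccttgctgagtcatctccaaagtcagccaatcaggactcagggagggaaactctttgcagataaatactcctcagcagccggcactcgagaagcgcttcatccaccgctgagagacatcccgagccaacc
Cxcl9: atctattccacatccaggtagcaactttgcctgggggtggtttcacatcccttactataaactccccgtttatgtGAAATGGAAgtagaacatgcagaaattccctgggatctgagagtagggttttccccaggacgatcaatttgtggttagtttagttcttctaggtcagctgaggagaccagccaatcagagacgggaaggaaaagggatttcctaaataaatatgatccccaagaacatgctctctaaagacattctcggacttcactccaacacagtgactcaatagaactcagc
Cxcl2: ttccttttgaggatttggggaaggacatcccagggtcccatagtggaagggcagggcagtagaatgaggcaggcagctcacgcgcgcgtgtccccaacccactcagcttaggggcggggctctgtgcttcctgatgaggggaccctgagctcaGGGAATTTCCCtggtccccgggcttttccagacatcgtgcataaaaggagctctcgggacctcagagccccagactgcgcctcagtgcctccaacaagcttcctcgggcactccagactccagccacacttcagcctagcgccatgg
Ccl12: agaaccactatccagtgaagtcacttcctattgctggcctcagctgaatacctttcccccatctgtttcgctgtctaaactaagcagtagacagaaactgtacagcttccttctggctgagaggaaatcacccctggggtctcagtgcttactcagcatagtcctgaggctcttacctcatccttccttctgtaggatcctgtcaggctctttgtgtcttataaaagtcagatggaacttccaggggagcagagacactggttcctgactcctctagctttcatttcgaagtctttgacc
Pf4: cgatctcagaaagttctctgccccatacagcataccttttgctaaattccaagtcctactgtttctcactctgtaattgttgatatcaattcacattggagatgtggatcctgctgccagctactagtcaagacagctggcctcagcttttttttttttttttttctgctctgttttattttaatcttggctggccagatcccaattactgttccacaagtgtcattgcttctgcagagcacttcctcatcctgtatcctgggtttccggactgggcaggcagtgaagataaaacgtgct

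The Cxcl10 promoter held an IRF core that began 213 bases before the start site and kappaB matches that began 159 and 103 bases before it. The Cxcl9 promoter held an IRF core 175 bases before the start. In Cxcl2 the capitals cover 2 overlapping kappaB matches, which began 97 and 96 bases before the start. No letters of these patterns, nor of the interferon-gamma-activated site core TTCNNNGAA, were found in the Ccl12 and Pf4 windows. RefSeq promoters were matched for 28 of the 38 genes. A gene was counted if any of its promoters matched, and some, such as Ccl27a, had several. The shares of all promoters count each promoter singly, so the units differ. An IRF core was present at 6 of the 28 genes (21.4%), against 8.56% of all 32851 promoters of the same length. The kappaB consensus was present at 7 of the 28 (25%), against 4.51% of all promoters, namely Ccl20, Ccl27a, Ccl9, Cxcl1, Cxcl10, Cxcl2 and Cxcl3. The GAS core was present at 2 (7.14%), against 8.30% of all promoters. A match is a description of the letters and does not show binding.

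These promoter windows differed in how they were covered. H3K27ac regions covered all 300 bases of the Pf4 promoter in both WT libraries and none of it in either cKO library. The reverse held at Ccl12, where all 300 bases were covered in both cKO libraries and none in WT. At Cxcl2, H3K27ac covered 0 and 178 bases in WT and 24 and 34 bases in cKO, although the sequence further upstream was covered in cKO, as described below. At Cxcl10, only cKO replicate 2 had H3K27ac in the promoter (208 bases), while H3.3-HA covered 164 and 180 bases. The Cxcl9 promoter was covered in none of the 10 libraries. Ccl3 and the upstream promoter of Ccl25 each had 300 bases covered in both cKO libraries and 0 in both WT libraries. At Ccl3, however, WT replicate 2 had regions on both sides of the promoter (chr11:83647360-83649300 and chr11:83649842-83651334). The nearer of these ended 55 bp from the start site, so the Ccl3 promoter was not bare of acetylation nearby in that library.

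Library totals bear on every value below. The lists held 35018 to 61764 regions from 5365319 to 29988098 tags. The H3K27ac lists covered 89.6 and 74.8 Mb of the genome in WT and 46.2 and 62.0 Mb in cKO. The H3K36me3 lists covered 164 and 170 Mb in WT, and 90.7 Mb in cKO replicate 1 against 163 Mb in cKO replicate 2. Covered length is therefore given per library, and the counts of genes that differed between genotypes are also given with covered length divided by the library's total. Of 10 macrophage marker genes, 10 had H3.3-HA regions in both libraries. For H3K27ac, 9 had regions in both WT libraries (all but Cd14) and 9 in both cKO libraries (all but Mertk). Summed H3K27ac over the 10 markers was 141 and 110 kb in WT and 64.7 and 69.0 kb in cKO, and the part of this in the results below was not tested. Mrc1 had the largest mean difference (-32655 bp). Adgre1, Itgam, Lyz2 and Mertk were also lower, Cd68 was higher, and Csf1r, Cd14, Fcgr1 and Spi1 overlapped. Lyz2, which is part of the sum, is also the locus that carries Cre in cKO and not in WT. Its difference cannot be told apart from that engineered change. Summed H3K36me3 over the same markers overlapped, at 336 and 349 kb in WT and 315 and 399 kb in cKO. No fibroblast marker (0 of 5) had a region in any library. Of 6 T cell markers, 0 in WT and 1 in cKO had H3K27ac in both libraries, with 2 and 1 of 5 for B cells and 1 and 1 of 5 for neutrophils. Windows of the targeted genes carried H3K27ac in all libraries, with 2153 and 2163 bp in WT and 4058 and 3568 bp in cKO at H3f3a. At H3f3b they were 6446 and 5784 bp in WT and 7209 and 9453 bp in cKO. The lists thus do not show the deletion, and WT and cKO below mean libraries as labelled. H3K36me3 at H3f3b was 645 and 860 bp in WT and 2396 and 2675 bp in cKO, without overlap. At H3f3a it was 9479 and 10203 bp in WT and 8899 and 9572 bp in cKO, which overlapped. By the study's design the floxed stretch is only part of the gene at H3f3a but holds all exons at H3f3b. Why the deletion does not show in covered length was not tested. The study itself reported the deletion by genomic PCR, qRT-PCR, RNA-seq and western blot.

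Many chemokine ligand windows carried few regions or none. Across all libraries, 15 of the 38 genes lacked regions altogether. They were the homeostatic genes Ccl19, Ccl21a, Ccl21b, Ccl27a, Ccl27b, Cxcl12, Cxcl13 and Cxcl17, along with Ccl1, Ccl8, Ccl11, Ccl20, Ccl22, Cxcl1 and Xcl1. Another 3 (Ccl17, Ccl24 and Ccl26) had H3.3-HA but neither mark, so 18 genes had no H3K27ac or H3K36me3. The chromosome 4 genes Ccl21a, Ccl21b, Ccl27a and Ccl27b belong to near-identical copies, where short reads may not map uniquely, and their zero is uncertain. H3.3-HA regions were present in both libraries at 15 genes (39.5%), against 44.2% of all genes. H3K27ac regions were present in both libraries at 13 genes (34.2%) in WT and at 13 (34.2%) in cKO, against 46.2% and 45% of all genes. H3K36me3 regions were present in both at 6 genes (15.8%) in WT and 8 (21.1%) in cKO, against 48.7% and 43.5%. Chemokine windows were short, with a median of 8310 bp against 22425 bp for all genes, and the part of window length in these shares was not tested.

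**Figure D1:**
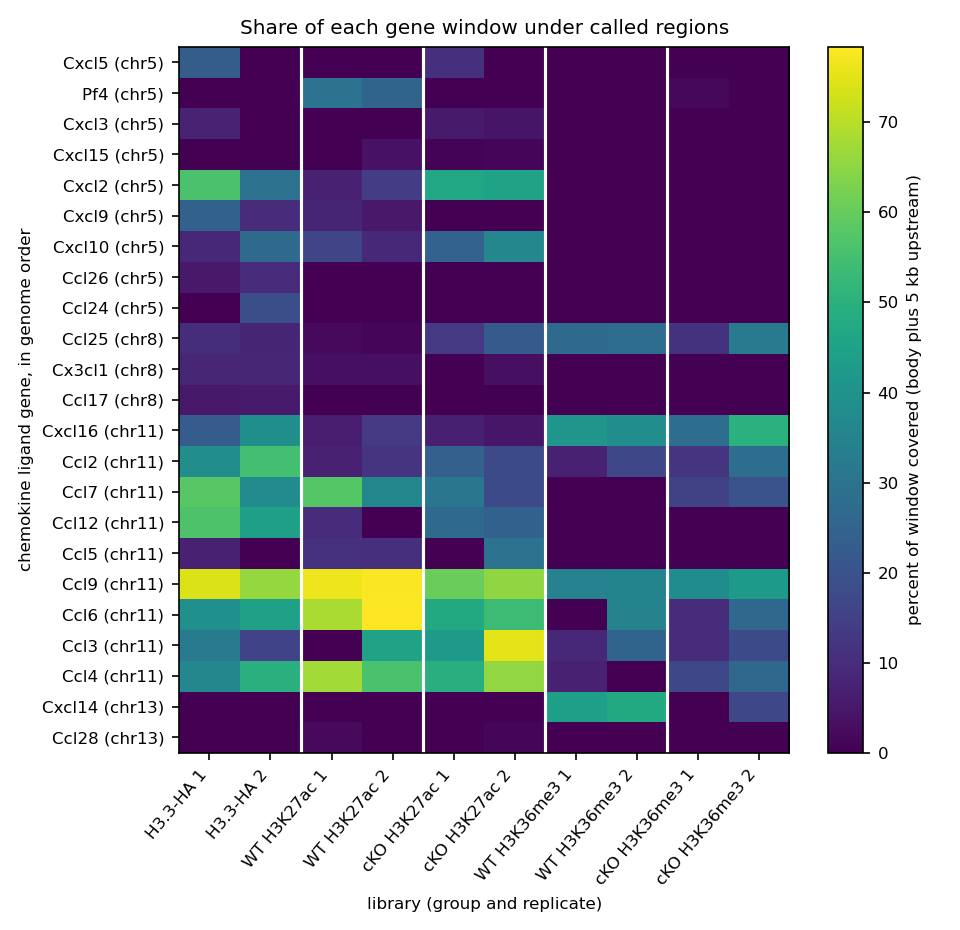
Percent of each gene's window (body plus 5 kb upstream) under called regions, for the 23 chemokine ligand genes with a region in at least 1 library (rows, in genome order) in the 10 libraries (columns). Ccl9, Ccl6 and Ccl4 are covered by H3.3-HA and H3K27ac in every library shown for those targets, and Cxcl14 has H3K36me3 with neither of the other targets.

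A gene was counted as higher or lower in cKO where both cKO libraries lay above, or below, both WT libraries in covered length. With 2 libraries against 2, the two-sided exact permutation test cannot give a p below 0.333, which was the value for every gene counted, so no single difference could pass 0.05. H3K27ac was higher in cKO at 6 of 38 genes (15.8%), against 10.1% of all genes: Cxcl2, Cxcl3, Cxcl10, Ccl2, Ccl12 and Ccl25. It was lower at 5 (13.2%), against 22.3% of all genes: Pf4, Cxcl9, Ccl6, Ccl7 and Ccl9. Per Mb covered in the library, the counts became 9 higher and 2 lower, against 21.9% and 13.2% of all genes. All 6 of the higher genes kept their direction on that scale, Ccl3, Ccl4 and Ccl9 joined them, and only Pf4 and Cxcl9 remained lower. The lower count was 8 without cKO replicate 2, for which no share over all genes was computed. The median difference was 0 bp over the 38 genes and 0 bp over all genes.

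H3K36me3 was higher in cKO at 3 genes (7.89%), against 4.28% of all genes: Ccl4, Ccl7 and Ccl9. It was lower at 1 gene (2.63%), Cxcl14, against 20.6% of all genes. Per Mb covered, 5 were higher and 1 was lower, against 15.6% and 16% of all genes, with Ccl2 and Cxcl16 added to the higher genes. The higher count was 6 without WT replicate 2 or without cKO replicate 1, and the lower count was 3 without WT replicate 1 or without cKO replicate 2. No share over all genes was computed for these left-out settings. H3K36me3 had no region at 28 of the 38 genes, and the median difference was 0 bp over the 38 genes and 0 bp over all genes.

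**Figure D2:**
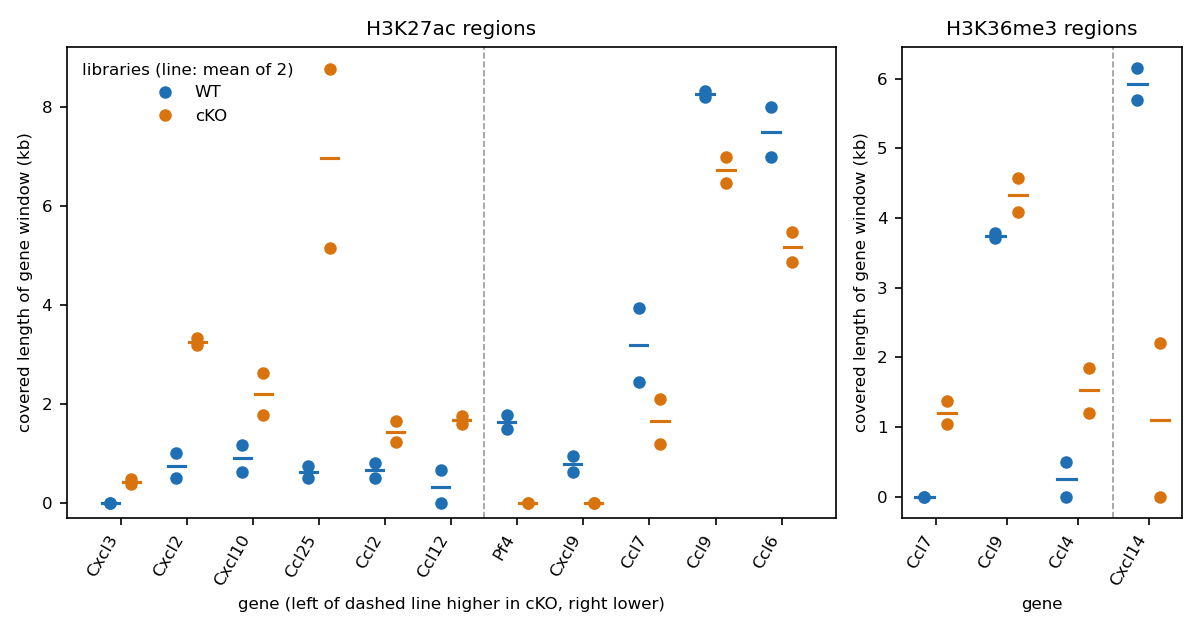
Covered length of the gene window in kb (vertical axis) for every gene whose WT libraries (blue) and cKO libraries (orange) did not overlap, for H3K27ac (left) and H3K36me3 (right). Points are the 2 libraries and short lines their mean. Cxcl2 had at most 1002 bp in WT and at least 3188 bp in cKO, while Pf4 and Cxcl9 were at 0 bp in both cKO libraries.

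The neutrophil attractants acting on Cxcr2 (Cxcl1, Cxcl2, Cxcl3, Cxcl5 and Cxcl15) lie with Pf4 in a cluster on chromosome 5 (chr5:90754360-90910938, with 5 kb added at each end). H3K27ac covered 9712 and 10018 bp of this span in WT and 12986 and 13028 bp in cKO. The genotypes did not overlap, and cKO was also higher per Mb covered. H3K36me3 covered 0 bp in both WT libraries and 1002 and 501 bp in cKO. Its genes differed among themselves, since 2 of the 6 were higher for H3K27ac in cKO, 1 was lower, and 3 were not separated.

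Cxcl2 had the largest H3K27ac difference of the cluster. H3.3-HA covered 3945 and 2094 bp of its window. H3K27ac covered 501 and 1002 bp in WT and 3329 and 3188 bp in cKO, a mean difference of 2507 bp (WT 751.5 ± 354 bp, cKO 3258.5 ± 99.7 bp, SD, n = 2). Both cKO libraries were above both WT libraries. The additional acetylation lay upstream of the gene, in regions found in both cKO libraries and in neither WT library. The widest was chr5:90895935-90900254, where cKO replicates 1 and 2 had 4320 and 4239 bp. The next were chr5:90901121-90901766 (646 and 501 bp) and chr5:90902300-90903682 (1299 and 1383 bp). The last of these reached 24 and 34 bases into the promoter printed above and stopped short of its kappaB matches. The stretch at and just after the start went the other way. The merged region chr5:90903771-90904478 had 501 bp in each WT library and 0 bp in each cKO library. In WT replicate 2 it covered the start site, and in WT replicate 1 it began 107 bp past it. Counted over the gene body alone, Cxcl2 was therefore lower in cKO, with a mean difference of -701.5 bp. H3.3-HA regions of both libraries shared 1530 bp of the Cxcl2 window with H3K27ac regions of both cKO libraries and 0 bp with those of both WT libraries.

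Cxcl3 had H3K27ac of 0 bp in both WT libraries and 473 and 378 bp in cKO. These regions sat at the end of the gene, overlapped the Cxcl15 window, and came from regions 501 bp wide. Cxcl15 itself had 0 and 501 bp in WT and 95 and 190 bp in cKO, so its genotypes overlapped. Cxcl5 had H3K27ac in cKO replicate 1 alone (786 bp), and Cxcl1 had none. Each of these genes thus had at most 786 bp of H3K27ac in any library. Pf4 stood apart, with 1784 and 1498 bp of H3K27ac in WT and 0 bp in both cKO libraries. The WT region chr5:90771600-90774555 covered its start site, exons and intron. No H3.3-HA region was called in the Pf4 window in either library. Just past the gene end, outside the window, H3.3-HA replicate 1 had a region of 954 bp (chr5:90773417-90774370) under the same WT acetylated region. Ppbp, which encodes another platelet chemokine and overlaps the Pf4 window, had no region of either mark.

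The interferon-induced pair Cxcl9 and Cxcl10 attract activated T cells through Cxcr3 and lie together on chromosome 5 (chr5:92316347-92353889). Their H3K27ac differed in opposite directions. Cxcl9 had 946 and 630 bp in WT and 0 bp in both cKO libraries. Cxcl10 had 1178 and 622 bp in WT and 1777 and 2632 bp in cKO, a mean difference of 1304.5 bp. For both genes the libraries of the genotypes did not overlap, and both directions held per Mb covered. The Cxcl9 separation was lost with 20 kb on both sides (-98 bp) and with regions of at least 1 kb (0 bp). Cxcl10 kept its separation in both of these settings (2026.5 and 1114.5 bp). The Cxcl9 region, chr5:92332134-92333082, lay upstream of the gene and was called in both WT libraries only. The Cxcl10 region, chr5:92352113-92354777, was also upstream and was called in all 4 libraries, with 1507 and 909 bp in WT and 2665 and 2131 bp in cKO. Neither difference was in the gene bodies, where no H3K27ac was called in any library. Both upstream stretches lie inside the annotated gene Art3, so their assignment to the chemokine genes rests on distance. Art3 starts on the opposite strand at position 92331827 of chromosome 5, just before the Cxcl9 region. H3.3-HA covered 2841 and 1153 bp at Cxcl9 and 640 and 1956 bp at Cxcl10, and at Cxcl10 it reached the start site or came within 87 bp of it.

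**Figure D3:**
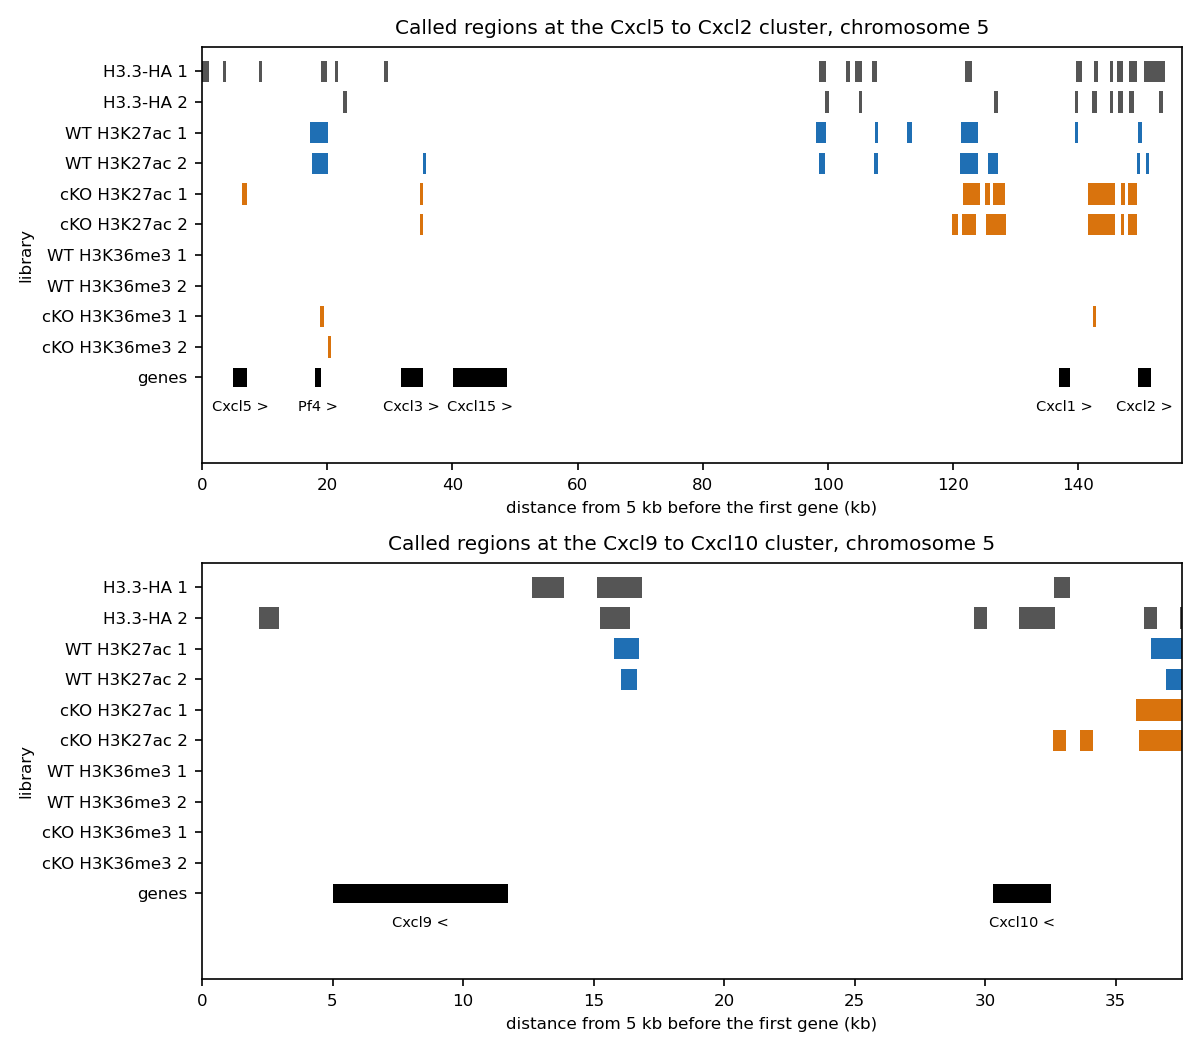
Called regions (bars) of the 10 libraries along both chromosome 5 clusters, with distance in kb from 5 kb before the first gene on the horizontal axis. Grey is H3.3-HA, blue WT, orange cKO and black the gene bodies, with an arrowhead for the direction of transcription. Upstream of Cxcl2 the wide H3K27ac bars are orange alone, and at Pf4 and upstream of Cxcl9 they are blue alone.

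The monocyte attractants Ccl2, Ccl7, Ccl8 and Ccl12, grouped here as Ccr2 ligands, lie on chromosome 11 with the eosinophil attractant Ccl11 and with Ccl1 (chr11:82030571-82310690). H3K27ac covered 7091 and 5747 bp of this span in WT and 7694 and 6375 bp in cKO, which overlapped. Per Mb covered, cKO was higher in both libraries, so the result depends on the scale. H3K36me3 covered 501 and 1166 bp in WT and 2843 and 6626 bp in cKO, without overlap on either scale. Only Ccl2, Ccl7 and Ccl12 contributed within the gene windows.

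Ccl2, the main ligand of Ccr2, had H3K27ac of 501 and 815 bp in WT and 1659 and 1222 bp in cKO. The genotypes did not overlap, but the regions differed in place between replicates, and with 20 kb added on both sides the mean difference became -1365 bp. H3K36me3 at Ccl2 was 501 and 1166 bp in WT and 812 and 1939 bp in cKO, which overlapped. The Ccl2 window lies within the annotated gene Gm17268 on the opposite strand. Ccl12 had H3K27ac of 656 and 0 bp in WT and 1754 and 1587 bp in cKO. Its region chr11:82101081-82102868 covered the start site and was called in both cKO libraries and neither WT library. H3.3-HA was long at Ccl2 (2660 and 3777 bp) and at Ccl12 (3698 and 2909 bp), where H3K27ac was short in WT.

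Ccl7 moved differently for each mark. H3K27ac covered 3932 and 2452 bp in WT and 2103 and 1193 bp in cKO, a lower length in cKO that overlapped WT once given per Mb covered. H3K36me3 covered 0 bp in both WT libraries and 1042 and 1375 bp in cKO. This H3K36me3 region, chr11:82046151-82047750, lay over exons and intron of Ccl7 and was called in both cKO libraries. The acetylated region chr11:82044724-82049026, over the start site and body, was called in all 4 libraries, with 4303 and 3930 bp in WT and 1739 and 2063 bp in cKO. H3.3-HA covered 3946 and 2570 bp of the window. Ccl8, Ccl11 and Ccl1 had no region in their windows, although the annotated Ccl1 gene spans most of the 134034 bp of its window.

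The second chromosome 11 cluster (chr11:83520778-83669683) held Ccl3, Ccl4, Ccl5, Ccl6 and Ccl9, which attract monocytes and other leukocytes. H3.3-HA covered 50098 and 53008 bp of the span. H3K27ac covered 49674 and 51445 bp in WT and 31391 and 44452 bp in cKO. The lower length in cKO overlapped WT once given per Mb covered (554 and 688 bp per Mb in WT, 680 and 717 in cKO). Outside the gene windows the span had 28582 and 27127 bp of H3K27ac in WT and 13808 and 19523 bp in cKO. Those intergenic lengths remained lower in cKO per Mb covered, at 319 and 363 bp in WT and 299 and 315 bp in cKO. H3K36me3 covered 6120 and 10555 bp in WT and 9507 and 15539 bp in cKO, which overlapped, while per Mb covered it was higher in both cKO libraries.

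Ccl9 and Ccl6 encode Ccr1 ligands made by macrophages and had the greatest mean H3K27ac length in WT of all 38 genes. Ccl9 had H3.3-HA of 7967 and 7075 bp. Its H3K27ac was 8200 and 8338 bp in WT and 6472 and 6996 bp in cKO, lower in cKO with a mean difference of -1535 bp. Per Mb covered this direction flipped, to 91.5 and 112 bp in WT against 140 and 113 bp in cKO. H3K36me3 at Ccl9 was 3721 and 3780 bp in WT and 4081 and 4581 bp in cKO, higher in cKO on both scales. Ccl6 had H3K27ac of 6990 and 8000 bp in WT and 4871 and 5475 bp in cKO, which overlapped per Mb covered (78.0 and 107 bp in WT, 106 and 88.4 bp in cKO). In both genes the start site lay under H3K27ac in all 4 libraries. At Ccl9 the H3K27ac difference was -1259 bp over the body alone. There the cKO regions broke off inside the gene, from 83574597 to 83576304 in replicate 1 and from 83574600 to 83576016 in replicate 2. WT replicate 1 had a shorter gap there and WT replicate 2 none. At Ccl6 the difference was -314.5 bp over the body alone, against -2322 bp over the window. H3K36me3 at Ccl6 varied from 0 to 3587 bp within WT and from 1008 to 2690 bp within cKO.

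Ccl3 and Ccl4 encode the macrophage inflammatory proteins, which attract monocytes and lymphocytes. Ccl3 had H3K27ac of 0 and 2950 bp in WT and 2761 and 4894 bp in cKO, so the genotypes overlapped. The WT libraries disagreed, with no region called in the window in replicate 1, and which of them is typical cannot be told from 2 libraries. Ccl4 had H3K27ac of 4800 and 3975 bp in WT and 3479 and 4670 bp in cKO, again overlapping. Its H3K36me3 was 501 and 0 bp in WT and 1206 and 1853 bp in cKO, without overlap on either scale. H3.3-HA covered 2114 and 1017 bp at Ccl3 and 2587 and 3529 bp at Ccl4. Ccl5, which attracts T cells and is also interferon-responsive, had H3K27ac of 1102 and 1055 bp in WT and 0 and 2894 bp in cKO. The cKO replicates of Ccl5 lay on either side of WT, and its regions were all upstream of the gene.

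**Figure D4:**
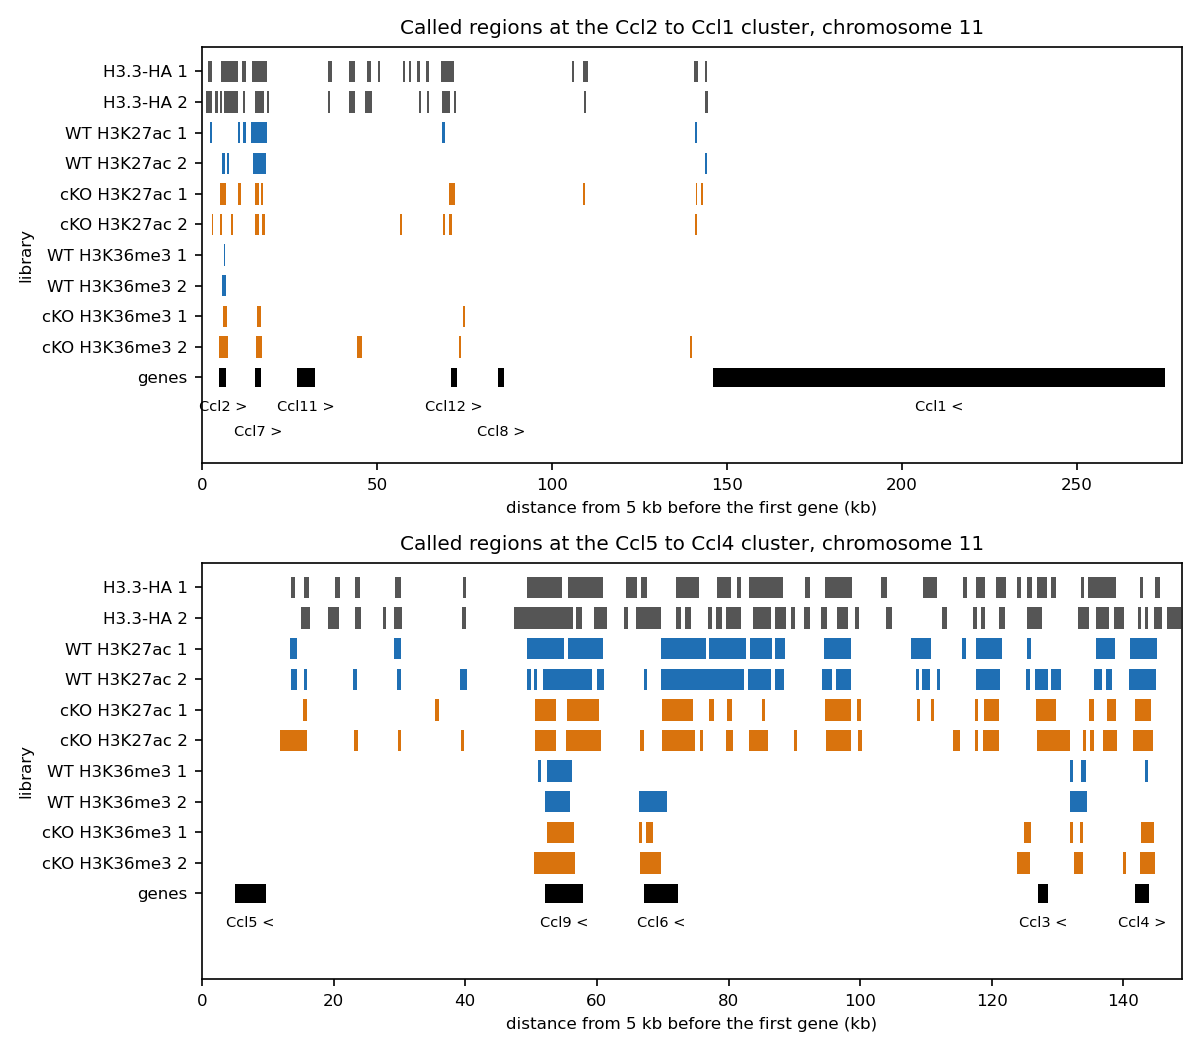
Called regions (bars) of the 10 libraries along both chromosome 11 clusters, with distance in kb from 5 kb before the first gene on the horizontal axis. Colors are as for chromosome 5: grey H3.3-HA, blue WT, orange cKO and black gene bodies. In the lower map the H3K27ac bars outside the gene windows add up to 28582 and 27127 bp in WT and 13808 and 19523 bp in cKO, and H3K36me3 at Ccl4 is wider in cKO.

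Outside these clusters, Ccl25 had the largest difference in H3K27ac. Ccl25, a ligand of Ccr9 known from thymus and small intestine, had 755 and 501 bp in WT and 5148 and 8779 bp in cKO, a mean difference of 6335.5 bp. A region at chr8:4322378-4328560 covered its start site in both cKO libraries (4146 and 6183 bp) and in neither WT library. This place is shared: Elavl1, which encodes a widely expressed RNA-binding protein, starts on the opposite strand at position 4325413 of chromosome 8, inside the same region and beside the Ccl25 start at 4325210. Of the cKO acetylation in the Ccl25 window, 2761 and 3992 bp lay within Elavl1. H3K36me3 at Ccl25 was 10777 and 11141 bp in WT and 4528 and 12767 bp in cKO, which overlapped.

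Cxcl14 had H3K36me3 of 5692 and 6149 bp in WT and 0 and 2208 bp in cKO, with no H3K27ac and no H3.3-HA in any library. The absent value came from cKO H3K36me3 replicate 1, which covered least of the genome. Without that library the difference was -3712.5 bp in place of -4816.5 bp. Cxcl16, a transmembrane ligand of Cxcr6, had H3K36me3 of 4506 and 4238 bp in WT and 3117 and 5492 bp in cKO, which overlapped. Its H3K27ac was 652 and 1422 bp in WT and 769 and 521 bp in cKO, which overlapped as well. Cx3cl1, the fractalkine gene, had 501 bp of H3K27ac in each WT library and 0 and 501 bp in cKO. Ccl28 had H3K27ac in WT replicate 1 (660 bp) and cKO replicate 2 (403 bp) alone.

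Regions of H3.3-HA and of the marks were compared by position. Of the 13 genes with H3K27ac in both WT libraries, 11 had H3.3-HA in both libraries, and Pf4 and Ccl5 did not within their windows. The same share among all genes with WT H3K27ac was not computed. At Ccl9, 5658 bp were under H3.3-HA in both libraries, and 5068 bp of these were under H3K27ac in both WT libraries and 4092 bp in both cKO libraries. At Ccl7 the values were 2487, 1771 and 1147 bp. At Cxcl2, Ccl12, Ccl3, Ccl25 and Ccl2, H3.3-HA shared 0 bp with acetylation present in both WT libraries. It shared 1530, 417, 577, 501 and 399 bp with acetylation present in both cKO libraries. The 0 bp need not mean that WT acetylation lay apart from H3.3-HA. WT replicate 2 at Ccl12 and WT replicate 1 at Ccl3 had no H3K27ac. At Ccl2 and Ccl25 the WT replicates had theirs in different places. The WT replicate 1 region chr11:82032803-82033303 at Ccl2 lay under H3.3-HA in both libraries. The opposite held at Cxcl16, Cx3cl1 and Cxcl9. They shared 594, 464 and 341 bp with acetylation of both WT libraries and 0 bp with that of both cKO libraries. At Cx3cl1, cKO replicate 1 had no H3K27ac, and at Cxcl9 neither cKO library had any. Regions touching the chemokine windows were also merged over the 4 H3K27ac libraries. Every library contributed to 8 of these, only both cKO libraries to 5, only both WT libraries to 3 and other combinations to 23. A merged region can run past a window and join stretches that do not overlap. At Ccl5, the part from cKO replicate 1 (chr11:83536117-83536751) lay outside the window and apart from that of WT replicate 1 (chr11:83534147-83535248). For H3K36me3 the same counts were 5, 1, none for WT only, and 8. Regions were not counted this way over all genes, so these counts are not read as a trait of the chemokine windows. The H3.3-HA cells are a separate group with tagged H3.3, and H3.3 was not mapped in WT or cKO cells.

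The receptors for these ligands were measured in the same way. Their windows had a median of 14716.5 bp, but reached 55091 bp at Cxcr5, 110892 bp at Ccr9 and 173264 bp at Cx3cr1. Other genes inside the receptor windows were not examined. Of 24 receptor genes, H3K27ac was higher in cKO at 6 (25%) and lower at 4 (16.7%), against 10.1% and 22.3% of all genes. Per Mb covered, 9 were higher (37.5%) and 2 lower (8.33%), against 21.9% and 13.2% of all genes. Cxcr4, the receptor of Cxcl12, had 1048 and 501 bp in WT and 2852 and 3554 bp in cKO. Ccrl2, an atypical receptor, had 1872 and 1837 bp in WT and 3827 and 4692 bp in cKO. Both genes were thus marked over longer stretches in cKO. Ccr2, the receptor of Ccl2, had 5321 and 5097 bp in WT and 6289 and 11919 bp in cKO. Cx3cr1, the receptor of Cx3cl1, had 15043 and 8820 bp in WT and 15316 and 27752 bp in cKO. For these last 2 genes the gap between genotypes was small beside the spread between cKO libraries. Cxcr6, the receptor of Cxcl16, had 4339 and 2910 bp in WT and 501 and 1242 bp in cKO. Cxcr5, the receptor of Cxcl13, had 10114 and 9212 bp in WT and 2099 and 5249 bp in cKO.

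The window of Ccr9, the receptor of Ccl25, differed for both marks in opposite directions. That window spans 110892 bp, so the regions of either mark need not belong to Ccr9 itself. Its H3K27ac was 2339 and 1976 bp in WT and 4903 and 5857 bp in cKO. Its H3K36me3 was 14917 and 15834 bp in WT and 4415 and 10765 bp in cKO, the only lower receptor gene of 24 (4.17%, against 20.6% of all genes). Per Mb covered, 1 receptor gene was lower (4.17%), against 16% of all genes, and 4 were higher (16.7%), against 15.6%.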

How the data were processed

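CUT&RUN libraries of BMDMs were read as region lists of 10 samples; 5 IgG samples of the series served only as peak-calling controls and were not analysed here. The authors used Bowtie2 (local alignment, paired ends) on mm10, then HOMER in histone style on every library by itself. WT, cKO and H3.3-HA libraries each had their own IgG control directory. Per the file headers, HOMER required peaks of 500 bp spaced by at least 1000 bp, 4-fold over control, and Poisson p-values of 1e-03 overall and 1e-04 over control and over the local 10000 bp. The deposited lists give start and end in bp with a constant score, so no signal per region entered the comparisons, and depth is known only as total tags.

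Covered length was computed in Python 3.11.15 with numpy 2.4.6 on 1-based mm10 coordinates, as the union of regions in each window, and checked on simulated intervals. Groups and replicates came from the sample labels. WT and cKO were called different where their 2 libraries each did not overlap, in 21938 genes. Differential binding from reads, as in the study's methods, was not possible with lists. The genes named are the members of the chromosome 5 and 11 clusters, others whose genotypes did not overlap, the 3 others with the highest coverage (Cxcl16, Cx3cl1 and Ccl28), and receptors with a separated difference of at least 1 kb, of which a further gene is not reported here. The members, lists and rules were chosen with earlier results of these data known. Alternatives were body alone, 20 kb on both sides, regions of at least 1 kb, lists cut to equal length, scaling by total covered length, a gap of at least 500 bp, replicate block, removal of the chromosome 4 copies, and each replicate left out. Figures were drawn with matplotlib 3.10.9.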

Additional observations from a re-analysis of the deposited data

How the results depend on the processing

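Called regions carry no height, so a region missed in a library may differ little in signal, and 2 libraries per group set no p below 0.333. Counts moved with the window and with scaling. The same counts over all genes were made only for the main setting and per Mb covered. The other counts below have no such share beside them and are not read as traits of these genes. With 20 kb on both sides, H3K27ac was lower at 9 genes and H3K36me3 higher at 11 and lower at 5, and regions were present in both libraries at 28 genes for H3.3-HA, 23 and 22 for H3K27ac in WT and cKO, and 16 and 20 for H3K36me3. For WT H3K27ac the count of genes with a region in both libraries was 8 over the body alone and 7 with regions of at least 1 kb. Per Mb covered, H3K27ac was higher at 9 genes and lower at 2, H3K36me3 was higher at 5, and the mean H3K27ac difference changed sign at Ccl9 and Ccl6 (25.1 and 4.45 bp per Mb). Scaled values of single genes and of receptor counts were added after the data were seen. Leaving out each replicate gave 6 to 8 genes lower for H3K27ac, 3 to 6 higher for H3K36me3 and 1 to 3 lower for H3K36me3, fewer libraries making separation easier.

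Among the settings of window, region width, list length and left-out replicates, single genes reversed in 3 cases. The H3K27ac difference became -2523 bp at Cxcl3 and -1365 bp at Ccl2 with 20 kb on both sides, and -701.5 bp at Cxcl2 over the body alone. Elsewhere 108 of the alternatives for single genes kept direction and separation and 9 lost the separation. With a replicate block, in which cKO 1 was set against WT 1 and cKO 2 against WT 2, counts were 7 higher and 5 lower for H3K27ac and 4 higher and 1 lower for H3K36me3. Same-numbered libraries deviated together with correlations over genes of -0.101 for H3K27ac and 0.104 for H3K36me3, so the numbers were not taken as pairs. A crossed replicate block for H3K27ac, added after the data were seen, gave 6 higher and 7 lower. The causes of these changes were not tested.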

Other observations

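Stretches between the chemokine genes, outside any window, also carried regions. Between Cxcl15 and Cxcl1, H3K27ac at chr5:90852459-90854011 was called in WT alone (1553 and 953 bp), as was chr5:90861679-90862350 (501 and 654 bp). In the same gap, chr5:90875539-90878609 was called in all 4 libraries, with 2867 and 2730 bp in WT and 2729 and 2318 bp in cKO. Between Ccl6 and Ccl3, H3K27ac at chr11:83607874-83609419 (1512 and 1412 bp) and at chr11:83645910-83646735 (665 and 700 bp) was called in WT alone, and chr11:83620360-83621012 (501 and 501 bp) in cKO alone. H3K36me3 at chr11:83644666-83646690, beside Ccl3, was called in both cKO libraries (947 and 1983 bp) and in neither WT library, where the annotated gene Rpl9-ps1 also lies. H3.3-HA regions were present without either mark at Ccl17 (352 and 371 bp), Ccl26 (432 and 763 bp) and, in replicate 2 alone, Ccl24 (1536 bp).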
